A study of Arabidopsis thaliana with 27 samples.

Results

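Genes of the UV-B photoreceptor pathway, 10 in all, were followed through every library of an RNA sequencing experiment on etiolated hypocotyls of Arabidopsis thaliana. They were UVR8 (AT5G63860), the ubiquitin ligase genes COP1 (AT2G32950), SPA1 (AT2G46340), SPA2 (AT4G11110), SPA3 (AT3G15354) and SPA4 (AT1G53090), the transcription factor genes HY5 (AT5G11260) and HYH (AT3G17609), and the repressor genes RUP1 (AT5G52250) and RUP2 (AT5G23730). They were chosen by name for their place in the pathway, and each was matched by its locus identifier. They are 10 of the 32832 loci in the authors' count table, and all 10 were among the 19794 genes that passed a filter on low counts and were tested.

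UVR8 is a UV-B photoreceptor that rests as a dimer and becomes a monomer when its tryptophans absorb UV-B. The monomer binds COP1, which in the dark works with SPA proteins to mark light-signalling proteins such as the bZIP factors HY5 and HYH for degradation, and the binding lets HY5 accumulate. HY5 and HYH then raise UV-B response genes, among them those for RUP1 and RUP2, WD40 proteins that return UVR8 to the dimer and so close a feedback loop.

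The groups were 3 genotypes, wild type Columbia-0 (WT), xpf-3 and uvr8-6, each kept dark or given 3000 or 30000 µmol m-2 of UV-B. The labels name the mutants by allele only. All groups, the dark ones included, grew without light for 2.5 days on 0.5x MS medium with 100 µM of the gibberellin GA4, and exposed seedlings were then given about 5 or 45 min of UV-B and returned to darkness. Hypocotyls were cut 6 h after exposure by the extraction protocol, although 2 days is what the title of the series gives. With 3 libraries in each of 9 groups there were 27, and the labels do not say whether these came from separately grown cultures, so a p-value here measures the spread between libraries, which may be technical.

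Levels are given in CPM, the count of a gene relative to the TMM-corrected total of its library, in replicates 1 to 3 or as mean ± SD, and a change as a log2 fold change ± SE from an edgeR quasi-likelihood fit across all tested genes. A gene is said to rise or fall where its Benjamini-Hochberg adjusted p was below 0.05. Total counts per library ran from 4508097 to 15342281. A note in the deposited workbook places WT and xpf-3 in a former sequencing run and uvr8-6 in a new one, so run and uvr8-6 genotype cannot be told apart wherever uvr8-6 is set against WT. UVH1, the gene that encodes the XPF endonuclease, was counted at 28.3 to 52.4 CPM in the 9 xpf-3 libraries and at 13.9 to 19.9 CPM in the other 18, and such counts say nothing of the transcript an allele makes. The summed level of 12 root markers went from 843 to 1177 CPM in WT dark libraries to 144 to 199 at 3000 and 66.1 to 82.0 at 30000 µmol m-2, with 993 to 1231, 96.1 to 145 and 70.5 to 160 in xpf-3 and 359 to 692, 223 to 322 and 37.4 to 65.4 in uvr8-6. By edgeR 5, 5 and 1 of the 11 tested root markers fell at the low dose in WT, xpf-3 and uvr8-6, and 8, 8 and 9 at the high dose. Of all tested genes 25.6%, 67.3% and 5.51% passed in either direction at the low dose, and 64.5%, 73.3% and 57.7% at the high dose. The 8 of 11 in WT and xpf-3 at the high dose stand near those shares, and the 5 of 11 in xpf-3 at the low dose below. The part of the root markers in the changes below was not tested, and in whole hypocotyls fewer cells of a type and less RNA per cell cannot be told apart. Summed apex and stomata markers stood at 137 to 161 CPM in WT dark libraries, 144 to 172 at the low dose and 117 to 127 at the high dose. In xpf-3 the sums were 143 to 175, 112 to 117 and 107 to 117, and in uvr8-6 133 to 157, 131 to 141 and 120 to 142. In WT 0 of 8 tested rose and 1 fell at the low dose, and 1 rose and 1 fell at the high dose. In xpf-3 5 of 8 tested rose and 1 fell at the low dose and 7 rose and 1 fell at the high dose, where in uvr8-6 4 rose and 1 fell, beside the same shares of all genes. The xpf-3 sums nonetheless went down, so a sum does not stand for the single markers. Seed markers summed to between 0.628 and 17.99 CPM, with the apex gene WUS at 0 in 15 libraries and the seed gene SESA4 in 13. PORA, a gene of the etiolated state, stood between 79.9 and 1270.5 CPM. It rose in xpf-3 by 2.42 ± 0.53 at the low dose (adjusted p = 0.00048) and 3.42 ± 0.55 at the high dose (1.34e-05) and in uvr8-6 by 1.35 ± 0.51 at the high dose (0.0294), while its changes of 0.07 and 0.48 in WT and 0.41 at the low dose in uvr8-6 did not pass. The xpf-3 change minus that of WT was 2.35 ± 0.72 (0.0205) at the low dose and 2.94 ± 0.73 (0.0206) at the high dose. Genes of ribosomal RNA took 0.00720% to 0.00789% of the counts in WT dark libraries, 0.0308% to 0.0382% at the low dose and 0.362% to 0.468% at the high dose, with 0.0166% to 0.0218%, 0.0496% to 0.0766% and 0.304% to 0.406% in xpf-3 and 0.0249% to 0.0878%, 0.0371% to 0.0525% and 0.0933% to 0.282% in uvr8-6. The part of PORA and of these shares in the changes below was not tested either. Replicate 2 of uvr8-6 stood apart from its fellow replicates in several of the 10 genes at every dose, and the uvr8-6 changes of SPA1, HY5, HYH, RUP1 and RUP2 are given with and without it.

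HY5 and HYH bind DNA at sites with an ACGT core, so the 200 bases before the annotated start of each gene were searched for ACGT, whose reverse complement is itself. The windows of HY5, HYH, RUP1, RUP2 and COP1 are shown because these are the genes whose levels moved most with dose or between replicates, or whose product acts directly on HY5. They were read from the TAIR10.1 genome (RefSeq annotation, matched by locus tag), each 5′ to 3′ on the strand of its gene and ending at the base before the start, with ACGT in capitals.
HY5: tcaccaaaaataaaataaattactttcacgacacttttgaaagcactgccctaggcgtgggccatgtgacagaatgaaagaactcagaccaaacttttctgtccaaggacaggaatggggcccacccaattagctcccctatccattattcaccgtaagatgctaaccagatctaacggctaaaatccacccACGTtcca
HYH: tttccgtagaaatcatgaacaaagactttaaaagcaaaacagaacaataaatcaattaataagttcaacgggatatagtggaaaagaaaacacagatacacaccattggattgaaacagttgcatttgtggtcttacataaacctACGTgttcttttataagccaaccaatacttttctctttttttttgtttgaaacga
RUP1: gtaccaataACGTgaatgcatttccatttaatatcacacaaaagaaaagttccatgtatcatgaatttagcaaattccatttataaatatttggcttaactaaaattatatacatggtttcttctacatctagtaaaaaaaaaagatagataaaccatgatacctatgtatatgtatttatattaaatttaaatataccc
RUP2: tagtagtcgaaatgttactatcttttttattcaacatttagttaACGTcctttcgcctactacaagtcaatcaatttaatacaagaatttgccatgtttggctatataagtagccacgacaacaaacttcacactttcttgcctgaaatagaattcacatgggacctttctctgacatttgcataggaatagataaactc
COP1: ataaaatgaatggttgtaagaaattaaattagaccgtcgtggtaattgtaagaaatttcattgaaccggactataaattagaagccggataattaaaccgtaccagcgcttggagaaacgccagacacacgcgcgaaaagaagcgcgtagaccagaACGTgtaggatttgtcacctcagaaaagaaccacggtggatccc

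The windows lie at chr5:3595074-3595273 on the minus strand for HY5, at chr3:6023644-6023843 for HYH, at chr5:21216572-21216771 for RUP1, at chr5:8004897-8005096 for RUP2 and at chr2:13977681-13977880 for COP1, the last 4 on the plus strand. None overlaps another annotated gene. The ACGT begins 8 bases before the start of HY5, 55 before that of HYH, 191 before that of RUP1, 156 before that of RUP2 and 44 before that of COP1. In HY5, RUP1 and COP1 it sits in the hexamer CACGTT or its complement AACGTG. SPA1 holds 1 ACGT at 107 bases, SPA2 1 at 108 within TACGTA, and SPA3 2 at 62 and 29, while the windows of UVR8 and SPA4 hold none. ACGT was thus found in 8 of 10 windows, against 38.4% of 27443 windows of protein-coding genes. The full G-box CACGTG, found in 5.64% of those windows, was in none of the 10. CACGTT occurred in 4 of them, against 6.32%. A match is a string of letters and not a measured binding site.

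Within WT, 1 of 10 genes passed at 3000 µmol m-2 against dark, where 25.6% of all tested genes did, 4 of 10 at 30000 µmol m-2 against 64.5%, and 3 of 10 between the doses against 46.4%. Within xpf-3 the counts were 4 of 10 at the low dose against 67.3% of all genes, 3 of 10 at the high dose against 73.3%, and 0 of 10 between the doses against 19.5%. Within uvr8-6 they were 0 of 10 at the low dose against 5.51%, 2 of 10 at the high dose against 57.7%, and 1 of 10 between the doses against 40.8%. With the replicate number as a block within each genotype, 4 of 10 passed in WT at the low dose, against 30.4% of all genes. In uvr8-6 at the low dose 2 of 10 passed, against 8.80%, both shares being of the same fit. Same-numbered libraries deviated together in these comparisons, which was read from the same data. The WT block also spans the high dose, where numbers did not pair. The called genes in uvr8-6 without the block were HYH and RUP1 at the high dose and RUP1 between the doses. For the counts of 0 by edgeR, an unadjusted p was below 0.05 for 1 gene in xpf-3 and for 0 in uvr8-6, and DESeq2 called 0 in each. At 30000 µmol m-2 the median change of the 10 genes was -0.33 in WT, -0.20 in xpf-3 and -0.13 in uvr8-6, beside 0.03, 0.03 and 0.09 for all genes. The comparisons of a genotype's 2 doses with dark share its dark libraries.

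**Figure D1:**
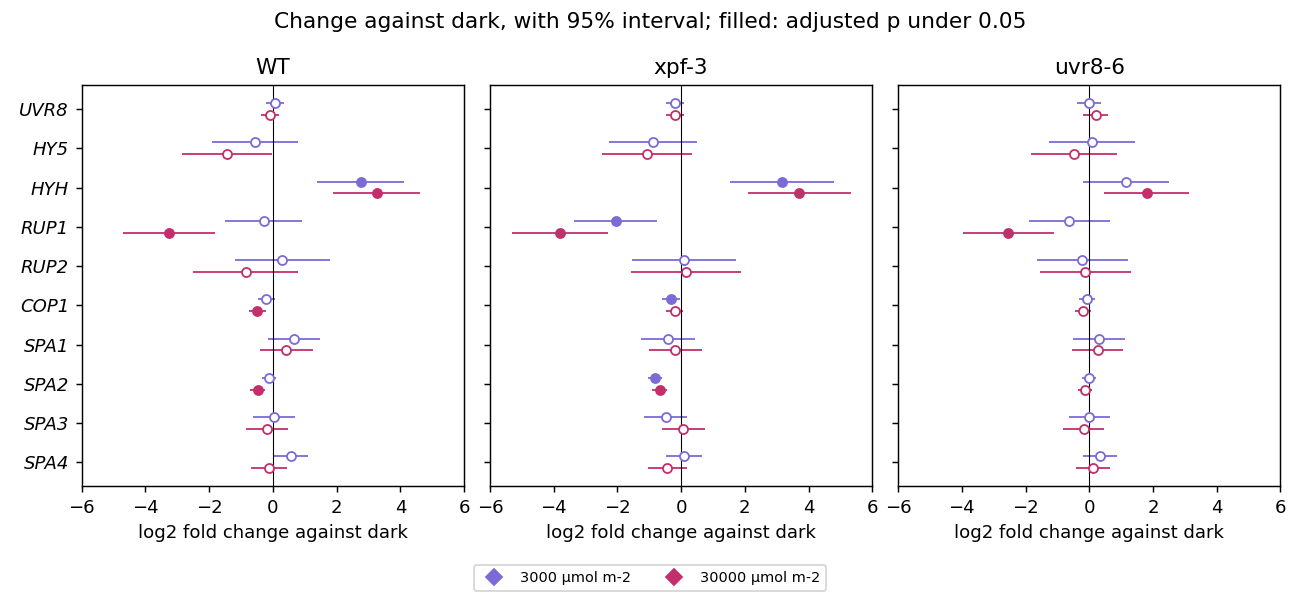
Log2 fold change against dark (horizontal axis) of the 10 genes in WT, xpf-3 and uvr8-6, with 95% intervals from the edgeR fit, filled where the adjusted p was below 0.05 and coloured by UV-B dose. HYH lies to the right and RUP1 to the left at 30000 µmol m-2 in all 3 genotypes, while SPA2 lies to the left in xpf-3 at both doses and COP1 has short intervals near 0, some of them filled.

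UVR8 encodes the photoreceptor itself. In WT its level was 70.6, 71.7 and 69.7 CPM in the dark libraries 1 to 3, 67.0, 74.0 and 82.3 CPM after 3000 µmol m-2 and 76.5, 65.0 and 59.0 CPM after 30000 µmol m-2. In xpf-3 it was 86.0, 79.7 and 70.8, 64.1, 66.5 and 78.0 and 72.9, 67.2 and 66.0 CPM in the same order. The groups overlap, and UVR8 passed in no dose comparison of either genotype: the 95% interval of its change at 30000 µmol m-2 was -0.36 to 0.20 in WT and -0.48 to 0.08 in xpf-3 on the log2 scale. In uvr8-6 the level was 2.78, 3.16 and 4.57 CPM in the dark, 3.56, 3.17 and 3.66 at the low dose and 3.18, 3.62 and 5.15 at the high dose. Every uvr8-6 library lies far below every WT and xpf-3 library. Against WT in the dark the log2 fold change was -4.33 ± 0.17 (adjusted p = 1.86e-14), a level of 0.0498 times WT, and leaving out any 1 library kept it between -4.57 and -4.18. In uvr8-6, too, UVR8 passed in no dose comparison.

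COP1, the ubiquitin ligase that UVR8 binds, fell modestly in WT at the high dose. Its level in WT was 30.6, 34.6 and 39.0 CPM in the dark, 30.9, 28.5 and 31.2 at the low dose and 27.4, 21.7 and 25.1 at the high dose. All high-dose values lie below all dark values, and the log2 fold change was -0.49 ± 0.13 (adjusted p = 0.00223). In xpf-3 the level was 32.2, 29.6 and 25.5 CPM in the dark, 24.7, 22.9 and 22.4 at the low dose and 25.1, 23.1 and 27.8 at the high dose. The low-dose values lie below the dark ones, with a log2 fold change of -0.32 ± 0.13 (adjusted p = 0.0341). This call was lost without xpf-3 dark replicate 1 (-0.24, adjusted p = 0.149), dark replicate 2 (0.0746), low-dose replicate 2 (0.0782) or low-dose replicate 3 (0.0969), without the low-count filter (0.164) and in a fit of the compared groups alone (0.0624). In uvr8-6 the level was 25.3, 34.8 and 31.4, 25.7, 32.0 and 29.5 and 25.3, 25.1 and 29.5 CPM in dose order, the groups overlap, and COP1 did not pass at either dose, except at the high dose without dark replicate 1 (-0.31, adjusted p = 0.0459), without high-dose replicate 3 (-0.32, 0.0455) or without the low-count filter (0.04997). The difference between the uvr8-6 and the WT response at the high dose was 0.29 ± 0.18 (95% interval -0.08 to 0.67, adjusted p = 0.341), so a weaker fall in uvr8-6 was not established.

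The 4 SPA proteins act with COP1 in the same ligase. SPA2, known for its strong activity in dark-grown seedlings, fell in WT at the high dose and in xpf-3 at both doses. Its WT level was 37.0, 42.5 and 43.0 CPM in the dark, 37.4, 36.2 and 38.8 at the low dose and 29.9, 30.9 and 27.2 at the high dose. The high-dose values lie below all other WT values. The log2 fold change was -0.48 ± 0.11 (adjusted p = 0.00057) against dark and -0.36 ± 0.11 (0.0103) against the low dose, the latter lost without WT high-dose replicate 3 (-0.31, adjusted p = 0.0551). In xpf-3 the level was 46.6, 42.2 and 44.7 CPM in the dark, 27.04, 21.0 and 27.4 at the low dose and 28.6, 27.1 and 27.9 at the high dose. Here the low-dose libraries were already as low as the high-dose ones, and the changes were -0.82 ± 0.11 (adjusted p = 7.89e-07) and -0.68 ± 0.11 (9.60e-06).

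The low-dose change of SPA2 was more negative in xpf-3 than in WT, with a difference of -0.70 ± 0.15 on the log2 scale (xpf-3 minus WT, 95% interval -1.02 to -0.38, adjusted p = 0.00212). It was the only 1 of the 10 genes to pass for this difference at that dose without a replicate block, where 29.6% of all tested genes did. With the block within genotypes RUP1 (-1.75, adjusted p = 0.00017), SPA1 (-1.09, 0.0100) and SPA3 (-0.56, 0.0341) passed too, beside 34.1% of all genes. Replicate numbers did not pair the xpf-3 dark and low-dose libraries. At the high dose the SPA2 difference was -0.20 ± 0.16 and did not pass (0.466). In uvr8-6 SPA2 stood at 31.5, 33.9 and 35.2 CPM in the dark, 31.0, 32.6 and 36.2 at the low dose and 32.1, 25.5 and 33.4 at the high dose. These groups overlap and no dose comparison passed. The high-dose change was -0.14 ± 0.11, and its difference from WT, 0.34 ± 0.15, had an unadjusted p of 0.0379 and an adjusted p of 0.184. In the dark SPA2 was lower in uvr8-6 than in WT, with a difference of -0.28 ± 0.11 (adjusted p = 0.045), a call lost without WT dark replicate 2 (0.132) or 3 (0.159), without uvr8-6 dark replicate 1 (0.159) or 2 (0.0954), without the low-count filter (0.115) and with the 2 groups alone (0.143).

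SPA1, the founding gene of the family and a repressor of light signalling, was more variable. In WT it stood at 52.8, 22.5 and 31.2 CPM in the dark, 64.0, 41.4 and 64.9 at the low dose and 55.4, 46.2 and 42.4 at the high dose. Each low-dose WT library was above the dark library of its own number, but the groups overlap because dark replicate 1 is high. The log2 fold change was 0.67 ± 0.39 and did not pass (adjusted p = 0.231). With the replicate number as a block within each genotype it was 0.72 ± 0.21 (adjusted p = 0.0137). Same-numbered WT dark and low-dose libraries deviated together, which was read from these same data. The block also spans the high dose, where WT numbers did not pair. In xpf-3 SPA1 stood at 53.6, 28.6 and 27.3, 31.5, 22.9 and 28.0 and 33.6, 28.4 and 35.2 CPM in dose order, and the low-dose change was -0.41 ± 0.40 (adjusted p = 0.379). In uvr8-6 it stood at 18.5, 53.3 and 18.1, 29.2, 56.4 and 25.3 and 31.5, 46.6 and 29.3 CPM, with replicate 2 the highest at each dose. The changes there were 0.31 ± 0.39 and 0.26 ± 0.39 and did not pass, and with replicate 2 left out at every dose they were 0.55 ± 0.34 (adjusted p = 0.496) and 0.66 ± 0.34 (0.110). Without dark replicate 2 alone the high-dose change was 0.97 and passed (adjusted p = 0.0315).

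SPA3 and SPA4, close relatives within the family, were the least abundant SPA genes per length of transcript. SPA4 in WT stood at 8.11, 10.5 and 7.69 CPM in the dark, 12.2, 9.70 and 16.6 at the low dose and 9.79, 6.30 and 7.86 at the high dose. The low-dose group reaches highest but overlaps both others. Between the doses SPA4 fell by 0.68 on the log2 scale (SE 0.27, adjusted p = 0.0443), a call lost without low-dose replicate 3 (0.195) or high-dose replicate 2 (0.129) or 3 (0.101), with DESeq2 (0.0535) and with its size factors or the authors' (0.0501 each). Against dark the low-dose change was 0.56 ± 0.26 (adjusted p = 0.125), and 0.55 ± 0.20 (0.0442) with the replicate block. In the mutants SPA4 ranged from 6.27 to 11.7 CPM in xpf-3 and from 5.55 to 12.6 CPM in uvr8-6, and passed in no dose comparison. SPA3 ranged from 13.1 to 23.7 CPM in WT, 9.63 to 23.7 in xpf-3 and 10.2 to 22.8 in uvr8-6, and passed in none either. SPA3 shares 135 bases and SPA4 3 bases with a neighbour on the opposite strand, and how reads were counted there is not given in the sources used here.

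**Figure D2:**
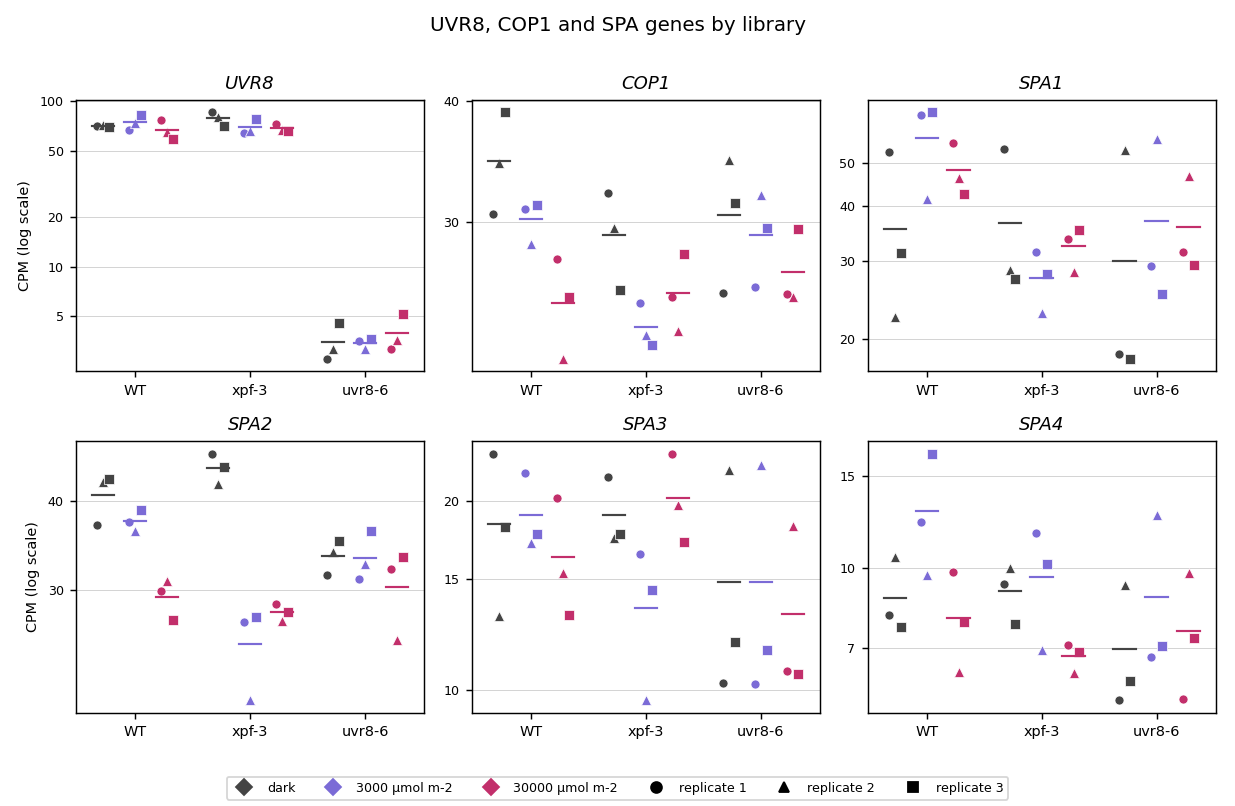
CPM of UVR8, COP1 and the 4 SPA genes in each library (vertical axis, log scale), by genotype, with colour for dose, marker for replicate number and a line at the group mean. UVR8 sits between 2.78 and 5.15 CPM in uvr8-6 and between 59.0 and 86.0 CPM elsewhere, and SPA1 and SPA3 of uvr8-6 replicate 2 (triangles) lie above the other 2 replicates at every dose.

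HY5, the bZIP factor at the centre of the pathway, passed in no dose comparison, and its mean was lower after UV-B in WT and xpf-3. Its WT level was 113, 55.1 and 71.9 CPM in the dark, 80.1, 31.1 and 51.8 at the low dose and 33.0, 21.3 and 33.9 at the high dose. All high-dose values lie below all dark values. The log2 fold change at the high dose was -1.44 ± 0.67, with a 95% interval of -2.84 to -0.04, and missed the threshold (adjusted p = 0.0668). DESeq2 put it at an adjusted p of 0.0497 and a fit of the 2 groups alone at 0.00388, and the reason for these shifts was not tested. At the low dose the change was -0.57 ± 0.65 (adjusted p = 0.568), and -0.59 ± 0.20 (0.0338) with the replicate block.

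In xpf-3 HY5 stood at 89.5, 62.4 and 50.7 CPM in the dark, 49.7, 25.6 and 34.3 at the low dose and 39.3, 38.8 and 18.9 at the high dose. Both exposed groups lie below the dark group. The changes of -0.88 ± 0.66 and -1.07 ± 0.68 did not pass (adjusted p = 0.244 and 0.159), and the high-dose change had an adjusted p of 0.0311 with the 2 groups alone. In uvr8-6 HY5 stood at 23.4, 95.5 and 21.2 CPM in the dark, 19.0, 108 and 21.1 at the low dose and 19.2, 60.8 and 20.7 at the high dose. Replicates 1 and 3 lie between 19.0 and 23.4 CPM at every dose, below the lowest WT dark library, and replicate 2 lies between 60.8 and 108 CPM. The uvr8-6 changes were 0.09 ± 0.64 and -0.48 ± 0.65 and did not pass, and with replicate 2 left out at every dose they were -0.18 ± 0.44 (adjusted p = 0.915) and -0.23 ± 0.44 (0.685). Against WT in the dark the difference was -0.78 ± 0.64 (adjusted p = 0.367) with all libraries and -1.85 ± 0.41 (0.00556) with replicate 2 of uvr8-6 left out at every dose. With WT replicate 1 left out at every dose instead, the difference was -0.45 ± 0.75 (adjusted p = 0.661).

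HYH, the close relative of HY5, rose in every genotype. Its WT level was 6.77, 1.39 and 2.39 CPM in the dark, 26.1, 17.0 and 31.5 at the low dose and 30.0, 26.7 and 48.9 at the high dose. Every exposed library lies above every dark one, and the doses overlap. The log2 fold change was 2.75 ± 0.66 at the low dose (adjusted p = 0.00374), a 6.74-fold rise, and 3.26 ± 0.66 (0.000205), 9.59-fold, at the high dose. Dark replicate 1 had the highest dark level, and without it the changes were 3.66 and 4.17.

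In xpf-3 HYH stood at 2.14, 1.39 and 0.945 CPM in the dark, 15.3, 12.3 and 13.3 at the low dose and 23.7, 18.9 and 17.5 at the high dose. The 3 groups do not overlap. The changes were 3.17 ± 0.78 (adjusted p = 0.00127) and 3.71 ± 0.78 (0.000235). The step between the doses, 0.54 ± 0.60, did not pass (0.564), except with the 2 groups alone (0.49, adjusted p = 0.0289). The xpf-3 response differed from that of WT by 0.42 ± 1.05 and 0.45 ± 1.05, neither of which passed.

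In uvr8-6 HYH stood at 1.60, 7.69 and 1.03 CPM in the dark, 5.30, 14.0 and 3.17 at the low dose and 6.22, 21.9 and 7.43 at the high dose. For each replicate number the level was higher at each higher dose, yet the groups overlap because replicate 2 stands above its group throughout. At the low dose the change was 1.15 ± 0.65 and did not pass (adjusted p = 0.369). With the replicate block it was 1.25 ± 0.33 (0.0270), without dark replicate 2 it was 2.49 (0.0441), and with replicate 2 left out at every dose it was 1.64 (0.123). At the high dose it was 1.80 ± 0.64 (adjusted p = 0.0211), a 3.49-fold rise. This call was lost without dark replicate 1 (1.45, adjusted p = 0.0906), dark replicate 3 (1.36, 0.103) or high-dose replicate 2 (1.02, 0.199) and with the 2 groups alone (0.0930). The change was 3.14 without dark replicate 2, and 2.29 (adjusted p = 0.00173) with replicate 2 left out at every dose.

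The change of HYH in uvr8-6 minus that in WT was -1.60 ± 0.93 at the low dose and -1.46 ± 0.92 at the high dose. Neither difference passed, and their 95% intervals ran from -3.54 to 0.33 and from -3.37 to 0.45. Single libraries moved both: the difference was -2.51 and -2.37 without WT dark replicate 1, and -0.26 and -0.12 without uvr8-6 dark replicate 2. With uvr8-6 replicate 2 left out at every dose it was -1.08 ± 0.70 and -0.92 ± 0.69, and with WT replicate 1 left out at every dose -2.51 ± 1.13 and -2.51 ± 1.12, and none of these passed. By edgeR without a replicate block 0 of the 10 genes passed for a difference in response between uvr8-6 and WT at either dose, where 0.788% and 8.21% of all tested genes did. An unadjusted p was below 0.05 for 0 genes at the low dose and 1 at the high dose (SPA2), and DESeq2 called 0 at both. The same held for xpf-3 against WT at the high dose, with 0 by edgeR, 0 by unadjusted p and 0 by DESeq2, beside 9.34% of all genes. With the block within genotypes HY5 passed for uvr8-6 minus WT at the high dose (1.08 ± 0.29, adjusted p = 0.0255). In that fit 11.5% of all genes passed, and replicate numbers were not taken to pair the WT dark and high-dose libraries.

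RUP1, the first of the feedback repressors, fell at the high dose in all 3 genotypes. Its WT level was 96.7, 55.4 and 63.2 CPM in the dark, 83.0, 30.2 and 64.7 at the low dose and 10.4, 6.14 and 5.78 at the high dose. The low-dose group overlaps the dark one, and the high-dose group lies far below both. The log2 fold change at the low dose was -0.29 ± 0.58 (adjusted p = 0.769). At the high dose it was -3.27 ± 0.69 (adjusted p = 0.000363), leaving 0.104 times the dark level, and between the doses it was -2.98 ± 0.69 (0.00149).

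In xpf-3 RUP1 was already lower at the low dose, with 112, 74.7 and 80.1 CPM in the dark, 29.3, 14.8 and 19.8 at the low dose and 7.81, 7.51 and 4.15 at the high dose. The 3 groups do not overlap. The changes against dark were -2.06 ± 0.62 (adjusted p = 0.00623) and -3.79 ± 0.72 (9.61e-05). The low-dose response differed from that of WT by -1.77 ± 0.84, with an unadjusted p of 0.0482 and an adjusted p of 0.118, which does not pass. A fit of the 4 groups alone gave -1.65 (adjusted p = 0.0405). Between the doses the xpf-3 change was -1.74 ± 0.74 and missed the threshold (0.104), and with the 2 groups alone it was -1.78 (0.00262).

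In uvr8-6 RUP1 stood at 13.2, 46.6 and 17.8 CPM in the dark, 6.58, 35.7 and 7.98 at the low dose and 1.48, 9.78 and 2.34 at the high dose. Replicate 2 was the highest of its group at each dose, and the high-dose group lies below the dark group. The low-dose change was -0.62 ± 0.61 and did not pass (adjusted p = 0.65), and it was -0.82 ± 0.20 (0.0149) with the replicate block and -1.11 ± 0.44 (0.214) with replicate 2 left out at every dose. The high-dose change was -2.54 ± 0.69 (adjusted p = 0.00369), and it ran from -3.73 without high-dose replicate 2 to -1.81 without dark replicate 2, each time past the threshold, and was -3.07 (0.000112) with replicate 2 left out at every dose. Between the doses RUP1 fell by 1.92 (SE 0.69, adjusted p = 0.032). This call was lost without low-dose replicate 2 (-0.73, 0.410), high-dose replicate 1 (0.124) or high-dose replicate 3 (0.0990) and with the 2 groups alone (0.0862), and the change was -3.10 without high-dose replicate 2 and -1.96 (adjusted p = 0.0120) with replicate 2 left out at every dose. In the dark the difference of uvr8-6 from WT was -1.48 ± 0.60, which did not pass (0.064), and -2.22 (adjusted p = 0.00156) with replicate 2 left out at every dose. With WT replicate 1 left out at every dose instead, that difference was -1.20 ± 0.67 (adjusted p = 0.166).

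RUP2, the other feedback repressor, was scarce and passed in no comparison of the fit without a replicate block. Its WT level was 8.03, 2.78 and 2.30 CPM in the dark, 9.88, 2.47 and 4.57 at the low dose and 3.22, 2.75 and 1.503 at the high dose. In WT replicate 1 was the highest of each group, 3.03, 2.83 and 1.53 times the geometric mean of the other 2. In xpf-3 it ranged from 1.58 to 6.39 CPM and in uvr8-6 from 1.34 to 9.27 CPM. The 95% interval of its change at the high dose was -2.50 to 0.79 in WT, -1.57 to 1.87 in xpf-3 and -1.55 to 1.30 in uvr8-6, and a 2-fold change in either direction lies within 2 of the 3. With replicate 2 of uvr8-6 left out at every dose its changes in uvr8-6 were -0.60 ± 0.67 and 0.07 ± 0.64.

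**Figure D3:**
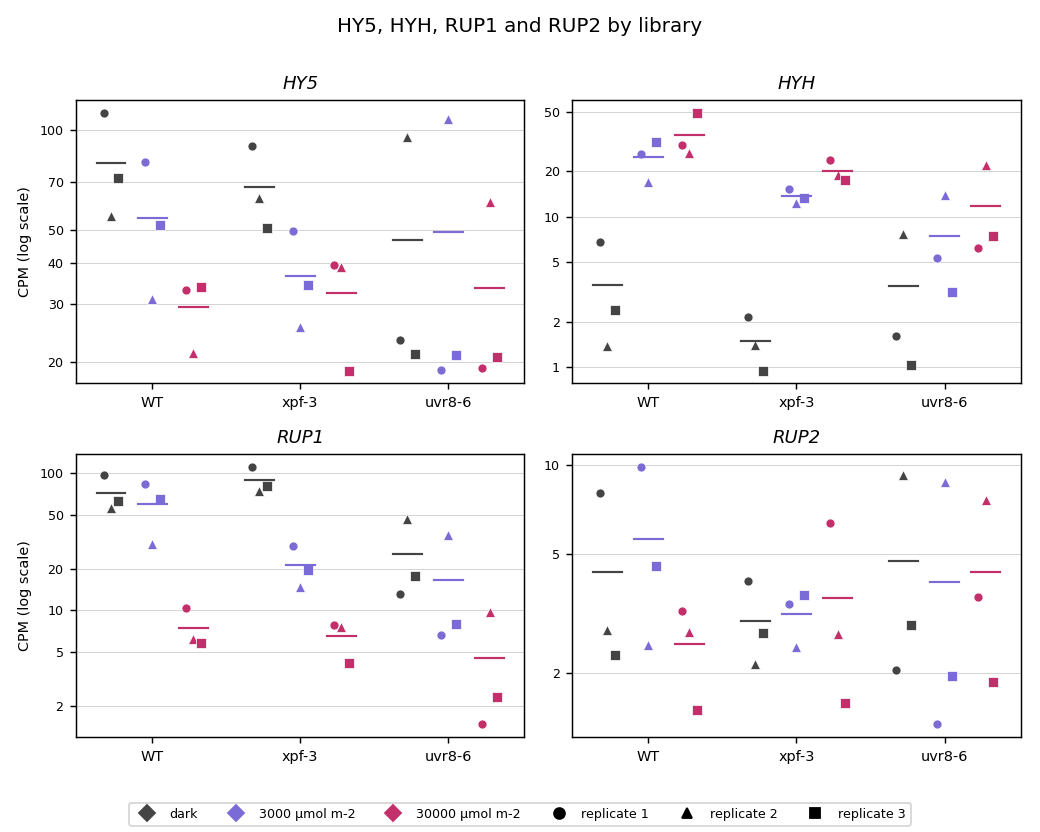
CPM of HY5, HYH, RUP1 and RUP2 in each library (vertical axis, log scale), by genotype, with colour for dose, marker for replicate number and a line at the group mean. The mean of HYH is higher and that of RUP1 lower at each higher dose in every genotype, and the triangles of uvr8-6 replicate 2 lie above circles and squares for all 4 genes at all 3 doses.

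Scaled by the length of annotated exons, the order of the genes changed with dose. In WT dark HY5 had the highest level per kilobase of exon, 63.6 ± 23.6 CPM, followed by RUP1 with 45.4 ± 13.9, UVR8 with 32.0 ± 0.450, COP1 with 14.0 ± 1.69 and SPA2 with 10.3 ± 0.845. SPA1 (8.60 ± 3.79), SPA3 (5.17 ± 1.4999), HYH (4.54 ± 3.70), RUP2 (2.85 ± 2.07) and SPA4 (2.74 ± 0.469) came last. Of the neighbours in this order, UVR8 and COP1, and COP1 and SPA2, differ by more than the larger SD of the pair, and the others do not. At 30000 µmol m-2 HYH led with 45.4 ± 15.5 CPM per kilobase, ahead of UVR8 with 30.2 ± 4.04 and HY5 with 23.4 ± 5.57, and RUP1 had gone to 4.72 ± 1.64, close to SPA3 with 4.59 ± 1.02.

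The ratio of HYH to HY5 per kilobase, taken within each library, was 0.0640 ± 0.0296 in WT dark, 0.799 ± 0.240 at the low dose and 1.95 ± 0.438 at the high dose (SD, n = 3). In xpf-3 it was 0.0350 ± 0.00437, 0.635 ± 0.141 and 1.09 ± 0.366. In uvr8-6 it was 0.107 ± 0.0262, 0.302 ± 0.132 and 0.564 ± 0.0340, so that HYH stayed below HY5 in every uvr8-6 library, replicate 2 included. The groups of a genotype do not overlap in any of the 3. The ratio of RUP1 to RUP2 went from 19.3 ± 7.505 in WT dark to 11.3 ± 2.84 and 3.02 ± 0.790, from 29.7 ± 3.69 to 6.51 ± 1.64 and 2.15 ± 0.834 in xpf-3, and from 5.72 ± 0.744 to 4.22 ± 0.462 and 0.956 ± 0.481 in uvr8-6. These ratios, chosen after the levels had been seen, are given as a description without a test.

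**Figure D4:**
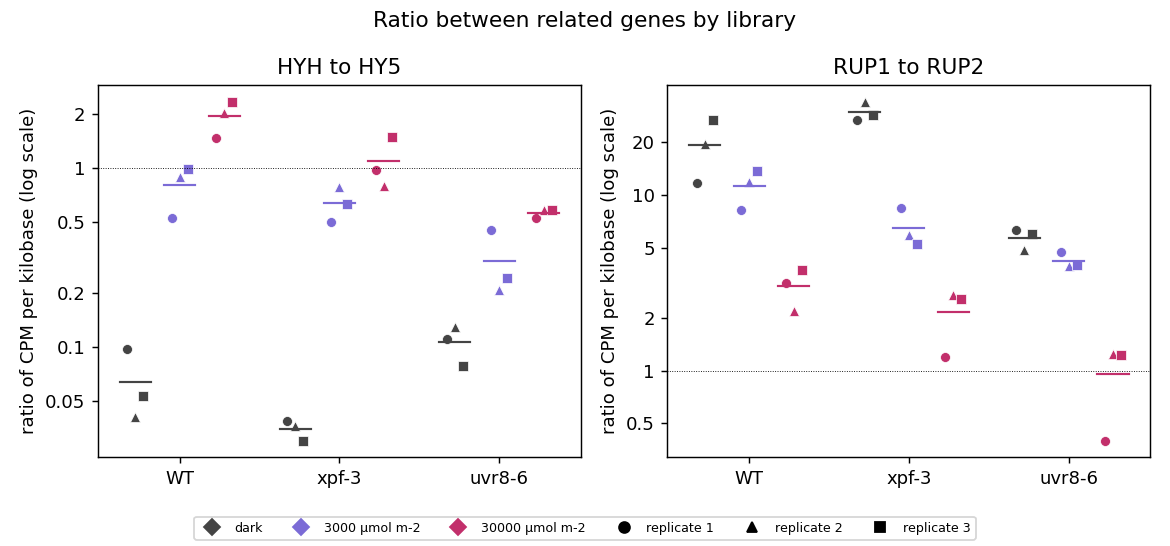
Ratio of HYH to HY5 and of RUP1 to RUP2 in each library, both as CPM per kilobase of exon (vertical axis, log scale), by genotype, with colour for dose, marker for replicate number, a line at the group mean and a dotted line at 1. The mean of the first ratio is higher and that of the second lower at each higher dose in every genotype, and the triangles of uvr8-6 replicate 2 are not set apart from its circles and squares.

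UVR8 was far lower in uvr8-6 than in WT in the dark, and SPA2 slightly lower, by a call lost in the fits given above for SPA2. Between xpf-3 and WT 0 of 10 passed by edgeR, beside 0.167% of all tested genes, with 0 at an unadjusted p below 0.05 and 0 by DESeq2. Between uvr8-6 and WT 2 of 10 passed, beside 31.4% of all genes. With uvr8-6 replicate 2 left out at every dose 5 passed, beside 19.6% of all genes in the same fit, each lower in uvr8-6: UVR8, HY5, RUP1, SPA1 (-0.98, adjusted p = 0.0357) and SPA3 (-0.75, 0.0307), while SPA2 (-0.29, 0.0610) no longer did. That replicate was left out after it was seen to be the highest for HY5, RUP1, SPA1 and SPA3. Their larger differences and their calls thus follow from the choice. With all libraries these genes were lower too but did not pass, with DESeq2 changes of -0.77, -1.47, -0.24 and -0.30 in that order. With WT replicate 1 left out at every dose instead, HY5 (-0.45, adjusted p = 0.661) and RUP1 (-1.20, 0.166) did not pass. Neither did SPA1 (0.15, 0.816) and SPA3 (-0.08, 0.869), while UVR8 and SPA2 (-0.34, 0.0278) did.

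Replicate 2 of uvr8-6 stood apart in these genes at all 3 doses. Compared with the geometric mean of the other 2 libraries of its group in the dark and at the lower and higher dose, it held 4.25, 5.37 and 3.03 times as much HY5. For HYH the factors were 5.35, 3.31 and 3.17, for RUP1 3.01, 4.82 and 4.86, and for RUP2 3.62, 4.97 and 2.81. SPA1 (2.90, 2.07 and 1.53), SPA3 (2.01, 2.08 and 1.70) and SPA4 (1.58, 1.81 and 1.52) were raised as well, whereas UVR8, COP1 and SPA2 were not the highest there at every dose. It was thus the highest library at all 3 doses for 7 of the 10 genes, as against 11.7% of all tested genes. It reached at least 2-fold at all 3 doses for 4 of the 10, HY5, HYH, RUP1 and RUP2, as against 79 genes or 0.399% of all tested. The genes with the largest such excess, looked up after the pattern was seen, were ELIP1 (at least 3.82 on the log2 scale), BBX30 (3.04), BBX31 (2.98), EPR1 (2.87) and PRR9 (2.69). ELIP1 encodes an early light-induced chloroplast protein, BBX30 and BBX31 B-box proteins, and EPR1 and PRR9 are clock-linked genes. PORA was the lowest of its group in the same 3 libraries, at 237 against 359 and 437 CPM in the dark, 225 against 557 and 585 at the low dose and 536 against 928 and 1159 at the high dose, and its part in the excess was not tested. In replicate 2, ribosomal RNA genes took 0.0878% of the counts in the dark, against 0.0249% and 0.0630% in the other 2, then 0.0417% against 0.0371% and 0.0525% at the low dose, and 0.282% against 0.0933% and 0.154% at the high dose. Organelle genes took 0.286% against 0.0684% and 0.168% in the dark, 0.0991% against 0.0849% and 0.0987% at the low dose and 0.407% against 0.124% and 0.152% at the high dose. Both shares were thus the highest of the group in the dark and at the high dose, and their part in the excess was not tested.

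Replicate 1 was the highest at all 3 doses for 3 of the 10 genes in WT (RUP1, RUP2 and SPA3), as against 6.22% of all genes, and for 4 of 10 in xpf-3, as against 5.06%. No gene of the 10 reached 2-fold at all 3 doses in either.

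**Figure D5:**
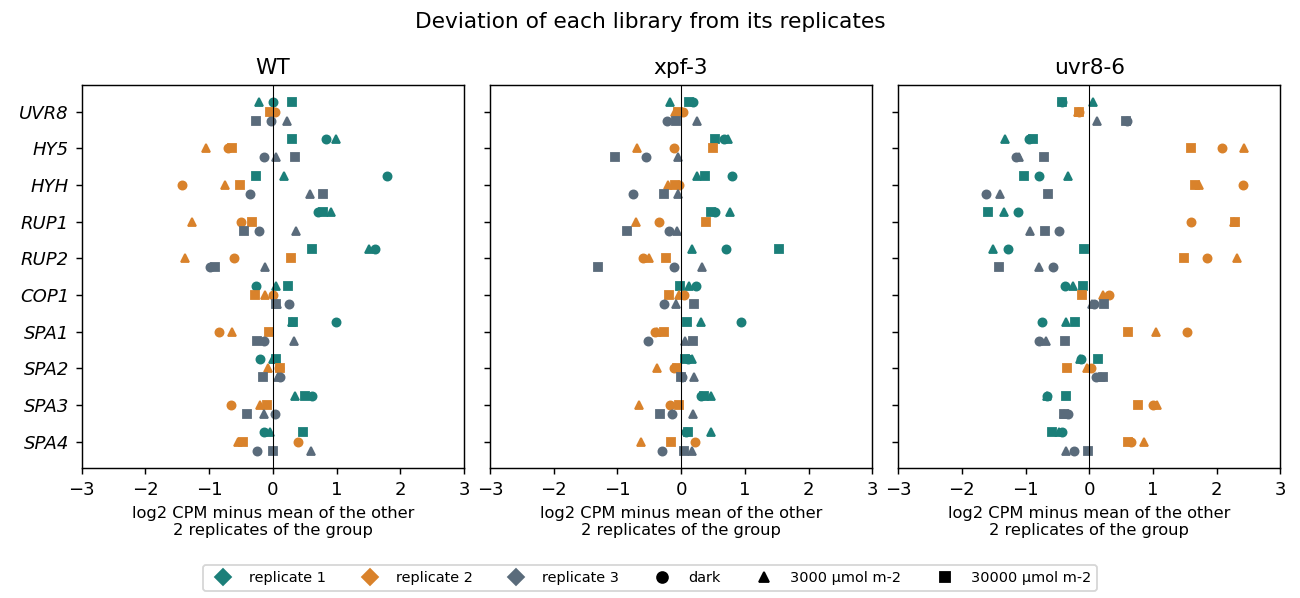
Log2 CPM of each library minus the mean of the other 2 replicates of its group (horizontal axis) for the 10 genes in WT, xpf-3 and uvr8-6, with colour for replicate number and marker for dose. In uvr8-6, replicate 2 lies 1.49 or more to the right for HY5, HYH, RUP1 and RUP2 and close to 0 for UVR8, COP1 and SPA2.

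Genes with the most similar patterns were sought among 16576 tested genes other than these 10, as Pearson r over the 27 libraries of log2 CPM minus the dark mean of the genotype. Other genes of the pathway were not removed from that set. These values describe likeness only, since all libraries share the doses and the replicate structure. HY5 was most like GLK2 (r = 0.942), LNK3 (0.941) and EPR1 (0.936), HYH like MEE34 (0.958), AT3G18940 (0.957) and GPX6 (0.954), and RUP1 like AIF1 (0.969), OBP4 (0.964) and MAX2 (0.958). RUP2 was most like SMZ (0.785), SIGE (0.783) and UGT84A2 (0.782), and SMZ (0.797) was also among those of SPA3, with NUDX19 (0.826) and ABCI20 (0.792). SPA1 was most like TZP (0.907), FTSH8 (0.856) and RPT2 (0.830), SPA2 like VPS54 (0.965), SEC8 (0.960) and DL3 (0.955), and COP1 like AT3G19780 (0.864), AT5G59840 (0.852) and WAVE5 (0.831). For SPA4 the highest was A/N-InvA (0.740), then DREB26 (0.739) and PP7 (0.737), and for UVR8, over the 18 WT and xpf-3 libraries, CP5 (0.873), AT3G13510 (0.867) and AT4G27870 (0.858). Among the 10 themselves the highest values were between HY5 and RUP1 (0.77), RUP2 and SPA3 (0.75) and HY5 and SPA3 (0.73), and the lowest between HYH and SPA2 (-0.74).

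Some genes downstream of UVR8 and HY5 rose at the low dose in WT and xpf-3. Of 16 tested genes of an 18-gene list, 5 rose and 0 fell in WT at the low dose and 8 rose and 1 fell at the high dose, with 8 and 0 at both doses in xpf-3, and 1 and 0 and then 7 and 0 in uvr8-6. Of all tested genes 25.6% and 64.5% passed in either direction at the low and the high dose in WT, 67.3% and 73.3% in xpf-3, and 5.51% and 57.7% in uvr8-6, so the number called in the list was near those shares at the low dose in WT and uvr8-6 and below them elsewhere. CHS, which encodes chalcone synthase of flavonoid synthesis, went from 0.585, 0.126 and 0.0884 CPM in WT dark to 20.1, 23.4 and 28.0 and 24.99, 36.0 and 30.4, and in uvr8-6 from 0.617, 1.15 and 0.322 to 2.35, 4.69 and 1.71 and 6.78, 11.01 and 4.73. Its change in uvr8-6 was 2.07 ± 0.48 at the low dose (adjusted p = 0.0125) and 3.42 ± 0.44 (1.76e-06) at the high dose, and its difference from the WT change was -4.25 ± 0.84 (0.0183) and -3.25 ± 0.84 (0.0207). FLS1, a flavonol synthase gene, rose by 3.62 ± 0.52 and 4.57 ± 0.49 in WT and by 2.34 ± 0.38 at the high dose in uvr8-6. In xpf-3 the dark libraries held 0 counts of CHS, and the exposed ones 28.8 to 35.9 CPM at the low and 31.0 to 47.1 CPM at the high dose. The list's median change was 0.98 and 1.30 in WT, 1.39 and 1.54 in xpf-3, and 0.50 and 0.91 in uvr8-6, beside medians of all tested genes between -0.01 and 0.09.

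CSN7, CSN2 and FUS6, genes of the COP9 signalosome, rose in WT at the high dose, by 1.26 ± 0.11 (adjusted p = 1.15e-09), 0.68 ± 0.07 (3.02e-08) and 0.88 ± 0.10 (6.33e-08). Of 16 genes of the CUL4-DDB1 ligase, the COP10-DET1 complex and the COP9 signalosome, which regulates cullin ligases, 10 rose and 0 fell at the low dose in WT and 11 and 1 at the high dose. The numbers were 12 and 2, then 10 and 2 in xpf-3, and 3 and 0, then 11 and 0 in uvr8-6. The shares of all tested genes called were 25.6% and 64.5% in WT, 67.3% and 73.3% in xpf-3 and 5.51% and 57.7% in uvr8-6, so that the 12 of 16 called in xpf-3 at the high dose lie at the share of all genes. The list's medians were 0.37 and 0.55 in WT.

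Of 6 transcription factor genes whose proteins bind UVR8, 0 rose and 2 fell at the low dose in WT and 1 rose and 3 fell at the high dose, with 0 and 5, then 1 and 4 in xpf-3, and 0 and 1, then 1 and 4 in uvr8-6. With so few genes, the 4 of 6 called in WT at the high dose stand at the share of all tested genes, 64.5%, and the 5 of 6 at the high dose in the mutants stand beside 73.3% in xpf-3 and 57.7% in uvr8-6. BIM1 and BES1, both of brassinosteroid signalling, fell in WT at the high dose, with changes of -2.11 ± 0.14 and -2.22 ± 0.17, and MYB13 rose by 1.69 ± 0.32. The fall of both was smaller in uvr8-6, by 1.17 ± 0.19 (adjusted p = 0.000877) and 1.30 ± 0.23 (0.00158), and both already started lower in uvr8-6 dark. Of 7 genes of other photoreceptors 0 passed by edgeR at the low dose in WT and in uvr8-6, with 2 and 0 at an unadjusted p below 0.05 and 0 by DESeq2 in each, while 5 fell in xpf-3. At the high dose 1 rose and 3 fell in WT, 1 and 5 in xpf-3 and 1 and 4 in uvr8-6. The 5 of 7 called in xpf-3 at the low dose lie near the 67.3% of all tested genes called there. At the high dose the 4 of 7 in WT, 6 of 7 in xpf-3 and 5 of 7 in uvr8-6 stand beside 64.5%, 73.3% and 57.7%. CRY1, a blue light receptor gene, fell in each genotype, by log2 changes of -1.12 ± 0.12 in WT, -1.37 ± 0.12 in xpf-3 and -0.77 ± 0.12 in uvr8-6. The list's median at the high dose was -0.27, -0.57 and -0.33 in the same order, and that of the UVR8-binding factors -1.11, -1.22 and -0.58.

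Of 10 tested genes from a list of 14 for other COP1-SPA substrates and HY5 partners, 1 rose and 0 fell in WT at the low dose, and 1 rose and 6 fell at the high dose. In xpf-3 the numbers were 1 and 5, then 1 and 6, and in uvr8-6 0 and 0, then 0 and 6. The numbers called lie near the shares of all tested genes, which were 64.5% and 73.3% at the high dose in WT and xpf-3, 57.7% in uvr8-6 and 67.3% at the low dose in xpf-3, and at the low dose in WT the 1 of 10 called is below 25.6%. For the 0 at the low dose in uvr8-6 by edgeR, an unadjusted p was below 0.05 for 0 genes and DESeq2 called 0. HFR1, a bHLH factor degraded through COP1, fell at the high dose, with changes of -1.96 ± 0.43 in WT, -2.05 ± 0.44 in xpf-3 and -1.08 ± 0.41 in uvr8-6. BBX21, a B-box partner of HY5, fell too, with -0.83 ± 0.11, -1.12 ± 0.11 and -0.52 ± 0.11. The list's median there was -0.37, -0.49 and -0.29.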

How the data were processed

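Total RNA of excised hypocotyls went into TruSeq stranded libraries, per the labels' protocols. The deposited raw counts cover 32832 loci. The submitters' processing notes name FastQC, Trimmomatic, HISAT2 and DESeq2 without versions. Genome build, read counter and use of strand are not given in the sources used. The authors' normalised values (unit signal) proved to be raw counts over a single size factor for each library, to within 5.24e-10 counts, and served only to recover those factors.

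Under R 4.3.3, edgeR 4.0.16 (built on limma 3.58.1) ran its quasi-likelihood test on the raw counts, using TMM, the default low-count filter and a robust prior, in 1 fit of 27 libraries in 9 groups with 18 residual degrees of freedom. Contrasts were two-sided, with Benjamini-Hochberg adjustment over 19794 genes. The script was tested on simulated data. Log2 values used a prior count of 2. Lengths and windows of 200 bases came from TAIR10.1, and the count table itself holds no coordinates.

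All 10 genes are named throughout. From each other list up to 4 genes with the smallest p among those that passed could be named, and as genes of like pattern the 3 with the highest r among genes with a mean log2 CPM of at least 1. The members and the 9 lists (90 loci, 81 tested) were chosen with earlier results of these data known.

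Replicate numbers paired the libraries, by correlated deviations from the group means, in WT at the low dose (lowest correlation of a same-numbered pair 0.133, highest of a pair with different numbers 0.285) and in the 3 dose comparisons of uvr8-6 (lowest 0.177, 0.156 and 0.215, highest 0.196, 0.173 and 0.0768). All 3 same-numbered pairs exceeded 0.1 there, and in 3 of these 4 comparisons some pair with different numbers correlated more than the weakest same-numbered one. In xpf-3 at the high dose against dark the weakest same-numbered pair (0.0363) exceeded every pair with different numbers (highest 0.0154). Not all of its same-numbered pairs exceeded 0.1, and it was not counted as paired. The pairing comes from the data, since the labels do not say what a number marks. Alternatives were DESeq2 (1.42.0), its size factors, no low-count filter, the compared groups alone, a replicate block and leaving out each library. Chosen after seeing the data were the authors' factors, a block within genotypes, and leaving out uvr8-6 replicate 2 or WT replicate 1 at every dose. The block within genotypes gave a replicate number the same effect at every dose of a genotype, also where numbers did not pair.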

Additional observations from a re-analysis of the deposited data

Results flagged for a closer look

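SPA2 responded differently to 3000 µmol m-2 in xpf-3 and in WT. Its change against dark was -0.82 ± 0.11 in xpf-3 and -0.12 ± 0.11 in WT, and the test of the difference itself gave -0.70 ± 0.15 (edgeR, adjusted p = 0.00212), with all 3 xpf-3 low-dose libraries below all 3 WT ones. Leaving out 1 library at a time kept the difference between -0.77 and -0.59. At that dose 29.6% of all tested genes differed in response.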

How the results depend on the processing

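Of 2319 values recomputed for the 10 genes, 2254 kept their side of the threshold, 28 lost a call, 37 gained one and 0 called values changed sign. The additive replicate block changed the number of called genes in no comparison. With the replicate block within genotypes the number called in WT was 4 at the low dose (1 without it), beside 30.4% of all genes in the same fit. It was 6 at the high dose (4), beside 67.1%, and 5 between the doses (3), beside 49.6%. In xpf-3 it was 6 at the low dose (4), beside 69%, 4 at the high dose (3), beside 74.6%, and 2 between the doses (0), beside 24.7%. In uvr8-6 it was 2 at the low dose (0), beside 8.80%. For xpf-3 minus WT at the low dose it was 4 (1), beside 34.1%, and for uvr8-6 minus WT at the high dose 1 (0), beside 11.5%. Replicate numbers paired the libraries only in WT at the low dose and in uvr8-6. Elsewhere the block added HY5 in WT at the high dose (-1.41, adjusted p = 1.72e-05) and between the doses (-0.82, 0.00416) and in xpf-3 at the low (-0.87, 0.00128) and high dose (-1.05, 0.000266), RUP2 (-1.12 ± 0.39, 0.0247) in WT between the doses, SPA1 (0.49, 0.0487) in WT at the high dose, SPA3 in xpf-3 at the low dose (-0.50, 0.00425) and between the doses (0.59, 0.00709), and RUP1 in xpf-3 between the doses (-1.67, 0.000141). With the compared groups alone HY5 was added at the high dose in WT and xpf-3, and COP1 was lost in xpf-3 at the low dose. HYH and RUP1 were added in xpf-3 between the doses, and RUP1 for xpf-3 minus WT at the low dose. In uvr8-6 HYH was lost at the high dose, RUP1 between the doses and SPA2 against WT in the dark. SPA2 was also lost there without the low-count filter, and 5 passed without uvr8-6 replicate 2, beside 19.6% of all genes. Leaving out 1 library changed calls of COP1, SPA2 and SPA4 in WT between the doses, and of COP1 in xpf-3 at either dose. In uvr8-6 it changed calls of HYH at the low dose, of HYH, COP1 and SPA1 at the high dose and of RUP1 between the doses. Against WT in the dark it changed those of RUP1 and SPA2. The cause of these shifts was not tested.

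Counts over all genes moved by over 1.5 times in these cases. For WT at the low dose 5064 became 3023 with the groups alone. For uvr8-6 at the low dose 1090 became 661 with the groups alone, 1742 with the block within genotypes and 654 without uvr8-6 replicate 2. In the dark, 33 genes for xpf-3 against WT became 453 with DESeq2, 1 with the groups alone and 67 with the additive block, and 6223 for uvr8-6 became 2616 with the groups alone and 3908 without replicate 2. The xpf-3 difference went from 5854 to 3426 without WT replicate 1 at the low dose, and from 1849 to 732 with the groups alone and 287 without WT replicate 1 at the high dose. The uvr8-6 difference went from 156 to 263 with DESeq2, 53 with the groups alone, 66 without uvr8-6 replicate 2 and 414 without WT replicate 1 at the low dose, and from 1625 to 602 with the groups alone and 2623 without WT replicate 1 at the high dose. HYH (8 to 423 counts per library) and RUP2 (11 to 133) had the lowest counts in a single library among the 10.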
